A study of Mus musculus with 288 samples.

Results

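Caloric restriction with a daily fast was compared with the same ration spread over the day and night in the livers of 19-month-old mice. The comparison took the 4 restricted groups that went without food for part of every day, CR-day-2h, CR-day-12h, CR-night-2h and CR-night-12h, with 96 libraries in all, and set their mean, each group at equal weight, against the 24 libraries of CR-spread. These 120 libraries are part of 288, which also hold ad libitum fed (AL) mice and the same 6 feeding conditions at 6 months of age. All animals were male C57BL/6J mice housed alone with a running wheel. Their recorded start age was 8 weeks, and by the study's account restriction followed a baseline of 6 weeks of free feeding. Every restricted mouse was fed pellets of 300 mg in a ration set at 70% of the AL intake. As the study describes, this ration stayed the same when AL mice ate more in later life, so the restriction relative to AL was deeper at 19 months. The 12h groups were given a pellet every 90 min through 12 h of the day or of the night. The 2h groups received the ration from the start of the day or of the night and ate it within about 2 h. CR-spread mice received a pellet every 160 min around the clock, so they were restricted but had no long daily gap without food. Livers were taken every 4 h from hours 0 to 44, from the mice lettered A and B at each of the 12 time points, which gives 24 livers a group. According to the labels the lights were on for 12 h and off for 12 h, whereas the study's methods describe collection in constant darkness.

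A large set of liver genes differs between the sexes in mice because growth hormone is secreted in sharp pulses in males and more evenly in females. The pulses drive STAT5B, which keeps male-biased genes such as the major urinary proteins (Mup) high and female-biased cytochrome P450 genes low, and the repressors CUX2 and BCL6 add to this division. Fasting acts on the liver through other routes, among them PPARA, a nuclear receptor that switches on fatty acid oxidation, while insulin after a meal favours glycogen and fat synthesis. The hepatic clock of Arntl, Clock, Per and Cry genes takes its time partly from when food arrives.

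Total counts per library were 3.47e+06 to 1.15e+07 in the 5 restricted groups at 19 months, with group medians of 7.34e+06 to 8.55e+06 in the fasted groups and 7.36e+06 in CR-spread. In CR-spread the A mice had 5.27e+06 to 1.15e+07 counts and the B mice 4.58e+06 to 7.79e+06. CR-day-2h was split alike, at 5.81e+06 to 1.09e+07 and 4.27e+06 to 7.84e+06, and the other fasted groups had no split of this size. The part of depth in the results was not tested. Levels are given in CPM, for which the counts of a library were divided by its TMM-scaled total in edgeR, and are not corrected for gene length, so they compare samples and not genes. The defining hepatocyte transcripts were high in every one of the 120 libraries, with Alb (albumin) between 44300 and 136000 CPM, Apoa1 (the main protein of high-density lipoprotein) between 2370 and 9140 and Ttr (transthyretin) between 2250 and 9170. Among the fasted groups at 19 months, 4 libraries had a correlation with their group's mean profile under 0.95, namely 1 in CR-day-2h at 0.947, 1 in CR-day-12h at 0.930 and 2 in CR-night-2h, the lowest at 0.922. Group medians were 0.978 to 0.983, and no CR-spread library stood apart. In bulk liver, fewer cells of a type and less RNA per cell cannot be told apart.

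Old livers that had fasted every day contained more of many mRNAs that are typical of female mouse liver, of which 14 of 23 tested rose, and less of a few male-biased ones, of which 3 of 23 fell, than old livers fed around the clock. Of 12228 genes tested, 94 differed by at least 1.5-fold at an adjusted p under 0.05 (0.769% of genes, edgeR's quasi-likelihood test with Benjamini-Hochberg adjustment). Of these, 60 were higher with a fast (0.491%) and 34 lower (0.278%). With no threshold on fold, 373 genes passed (3.05%), 199 higher (1.63%) and 174 lower (1.42%). The count depended on which mice entered, since 9 genes were called from the B mice alone and 74 from the A mice alone. Without the 4 libraries at 19 months and 3 at 6 months that stood apart, 161 genes were called, 67 higher and 94 lower, and 90 of the 94 were among them. Of 35 genes with a call that entered the checks by gene, 4 were called in every subset, namely Cyp2b13, Ntrk2, Scd2 and Cyp4a32. The subsets were the A mice alone, the B mice alone, hours 0 to 20 alone and hours 24 to 44 alone. The 35 include a predicted gene that is not printed. Saa2, Lcn2, Fgf21, Cyp2c40, Hao2, Fmo2, Nipal1 and Cyp2c39, which are given below with a call, were not among the 35.

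The named genes above CR-spread were led by Cyp2b13, a cytochrome P450 expressed in the liver of female mice. In CR-spread, Cyp2b13 ran from 0 over a median of 0.0489 to 1.51 CPM. In the 96 fasted livers it ran from 0 over a median of 1.33 to 311 CPM. The 2 ranges shared their low end, and 47 of the 96 fasted livers lay above the highest CR-spread liver, 16 of them in CR-day-2h, 12 in CR-day-12h, 12 in CR-night-2h and 7 in CR-night-12h. The fitted difference was 6.39 on the log2 scale (SE 0.89, adjusted p = 5.52e-08, edgeR). AL livers of the same age had a median of 2.73 CPM and a highest value of 36.9.

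Cyp2b9, the neighbouring gene on chromosome 7, is likewise female-biased. It ran from 0.327 over 29.4 to 152 CPM in CR-spread and from 2.17 over 161 to 577 CPM in the fasted livers, of which 52 exceeded every CR-spread liver. The difference was 2.25 (SE 0.39, adjusted p = 1.77e-05, edgeR). Cyp2b13 lies at 26061497 to 26096197 and Cyp2b9 at 26173411 to 26210661 of chromosome 7, both on the plus strand (GENCODE M21, matched by versioned identifier). The 250 bases in front of the annotated starts of this pair differ at 2 positions, so 99.2% of the letters are the same. They are shown because both genes of the pair rose with a fast. Sequences are from RefSeq, build GRCm38.p6, at chr7:26061245-26061494 and chr7:26173159-26173408, and capitals mark the bases that differ:
Cyp2b13: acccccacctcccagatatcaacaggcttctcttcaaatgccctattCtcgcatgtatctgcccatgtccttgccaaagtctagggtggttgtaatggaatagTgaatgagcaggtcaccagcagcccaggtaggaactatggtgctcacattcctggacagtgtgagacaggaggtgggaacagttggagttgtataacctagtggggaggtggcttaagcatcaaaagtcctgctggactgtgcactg
Cyp2b9: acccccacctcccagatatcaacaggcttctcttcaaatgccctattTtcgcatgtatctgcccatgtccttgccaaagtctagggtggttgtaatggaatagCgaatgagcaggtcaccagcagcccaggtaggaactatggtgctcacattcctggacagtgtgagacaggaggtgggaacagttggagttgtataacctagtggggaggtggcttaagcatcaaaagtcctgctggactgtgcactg
Reads of such near-identical relatives can be shared between them in counting, so how the signal divides between Cyp2b13 and Cyp2b9 is uncertain.

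Sult3a1, an amine sulfotransferase, was at or near 0 in CR-spread, with a highest value of 1.03 CPM, and reached 114 CPM in the fasted livers with a median of 0.29. In 31 fasted livers it was above every CR-spread liver (difference 4.89, SE 0.81, adjusted p = 7.74e-06, edgeR). Slc22a26, an organic anion transporter of the SLC22 family, rose from a median of 3.87 CPM (1.74 to 49.1) to one of 16.3 (0.753 to 269), a difference of 2.30 (SE 0.43, adjusted p = 0.000113, edgeR), with 22 of the 96 fasted livers above the CR-spread range. The promoter windows of Sult3a1 and Slc22a26 each hold the letters TTCNNNGAA, the core to which STAT5 proteins are known to bind. They are printed for that match, in capitals, from RefSeq GRCm38.p6 at chr10:33857472-33857721 on the plus strand and chr19:7802668-7802917 on the minus strand:
Sult3a1: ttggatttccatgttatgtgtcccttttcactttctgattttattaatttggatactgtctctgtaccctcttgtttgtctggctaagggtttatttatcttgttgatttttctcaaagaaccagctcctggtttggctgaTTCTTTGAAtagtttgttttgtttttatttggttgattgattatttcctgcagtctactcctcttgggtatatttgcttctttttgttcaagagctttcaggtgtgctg
Slc22a26: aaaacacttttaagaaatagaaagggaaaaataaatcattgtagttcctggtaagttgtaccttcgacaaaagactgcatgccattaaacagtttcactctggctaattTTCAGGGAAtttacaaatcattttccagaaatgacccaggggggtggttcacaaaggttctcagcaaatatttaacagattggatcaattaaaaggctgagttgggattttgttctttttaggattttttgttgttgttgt
TTCNNNGAA reads the same on both strands as a pattern. It occurred in 3 of the 41 windows found for genes higher with a fast (7.32%), in 2 of the 25 found for genes lower with a fast (8%) and in 595 of the 9483 found for all tested genes (6.27%), so the windows of the called genes held it about as often as others. A match of letters is not a bound site.

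Cux2, the repressor that is itself high in female liver, ran from 0 over 0.839 to 5.36 CPM in CR-spread and from 0.117 over 2.48 to 78.5 CPM in the fasted livers. The difference was 2.68 (SE 0.49, adjusted p = 5.58e-05, edgeR), and 37 fasted livers lay above the CR-spread range. Cyp2c69, another female-biased P450, had medians of 1.08 CPM in CR-spread and 3.62 with a fast and rose by 2.30 (adjusted p = 0.00163, edgeR), with 35 fasted livers above the highest CR-spread value of 7.88. A1bg, which encodes a plasma glycoprotein, rose by 2.50 (adjusted p = 0.00348, edgeR) at very low levels, with medians of 0.0545 and 0.37 CPM.

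**Figure D1:**
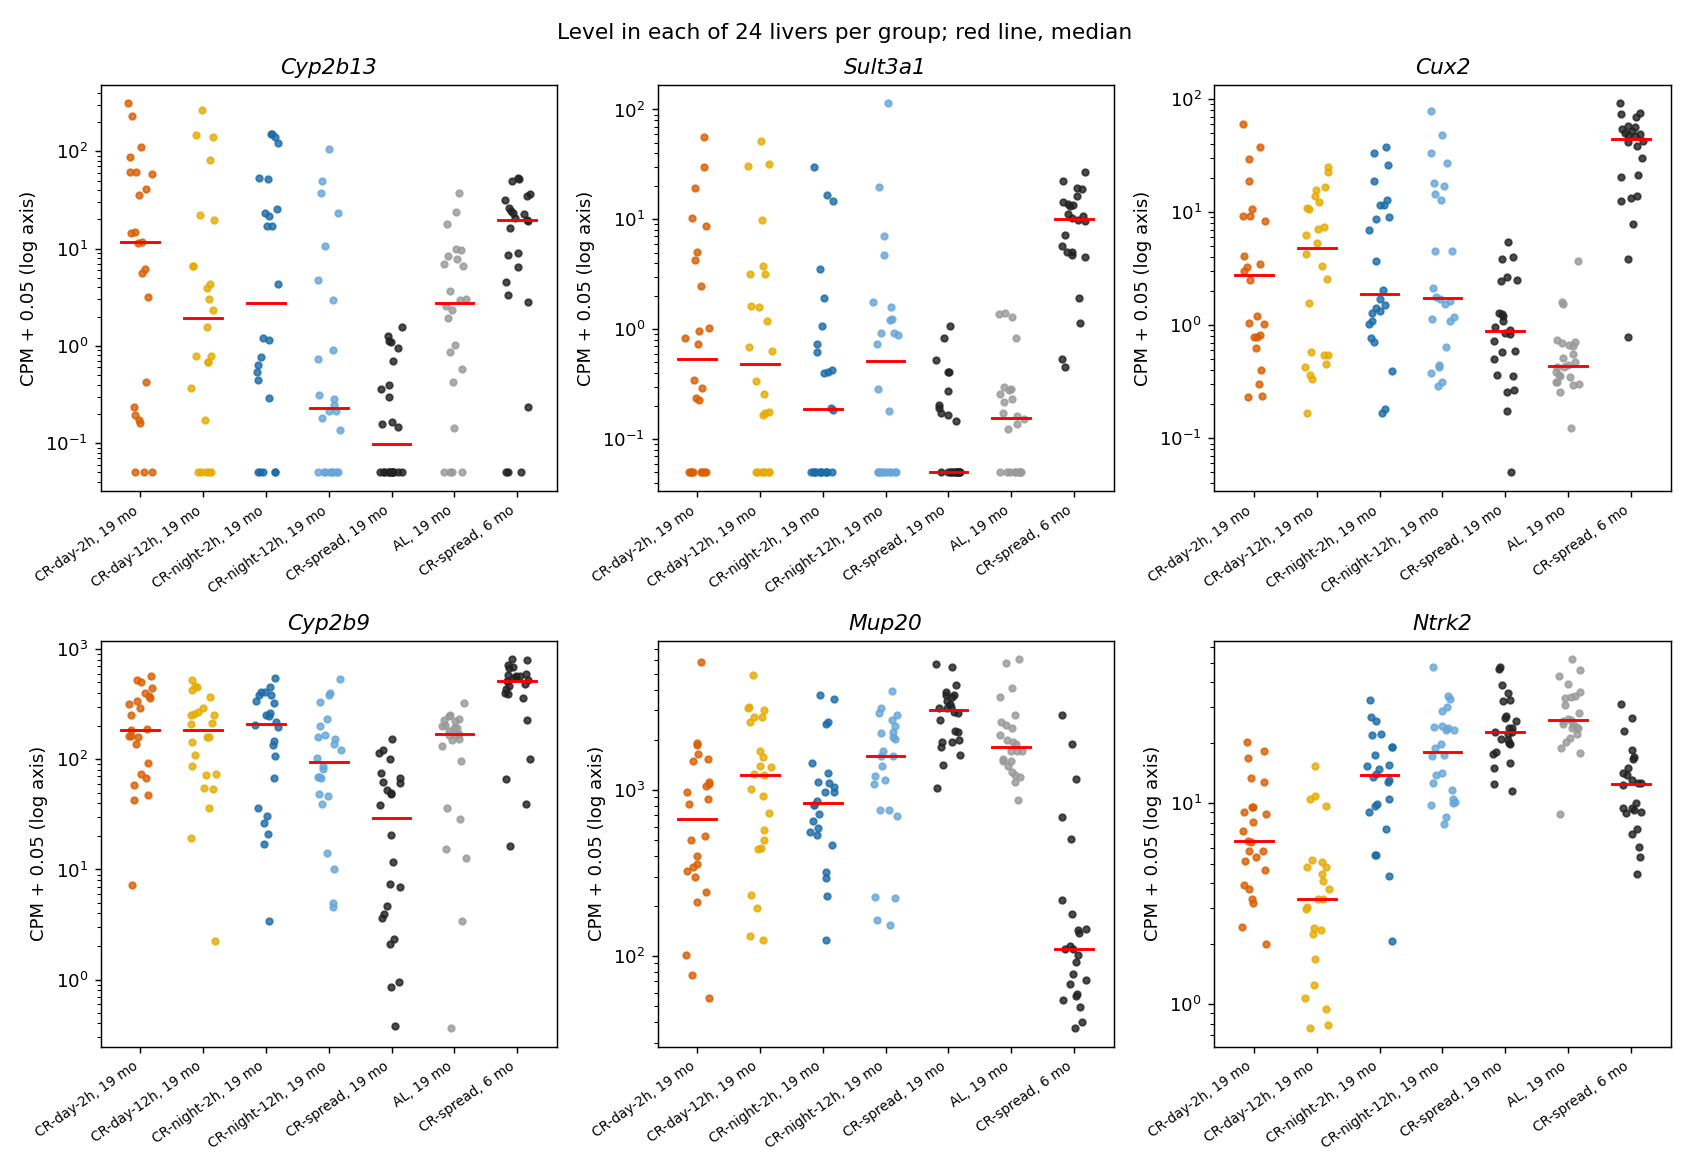
Level of 6 genes in single livers, in CPM plus 0.05 on a log axis, for the 4 fasted groups, CR-spread and AL at 19 months and CR-spread at 6 months, with 24 livers a group and the median as a red line. Cyp2b13, Sult3a1, Cux2 and Cyp2b9 reach 311, 114, 78.5 and 577 CPM in fasted livers against at most 1.51, 1.03, 5.36 and 152 in CR-spread at 19 months, and Mup20 and Ntrk2 are mostly lower with a fast.

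The spread between fasted livers was itself wide. For Cyp2b13, Sult3a1, Cux2 and Cyp2b9, a set taken after their values were seen, 23 of the 96 fasted livers were above the CR-spread range for all 4 genes, 14 for 3 genes and 38 for none. The 23 livers came from every fasted group, 6 in CR-day-2h, 7 in CR-day-12h, 4 in CR-night-2h and 6 in CR-night-12h. Another 9 livers were above that range for 1 of the genes and 12 for 2 genes, so the differences in these means were not shared equally by the mice of a group.

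Across the list of female-biased liver genes, 14 of 23 tested rose with a fast, 1 fell and 8 did not pass, with a median of 0.83 on the log2 scale against 0.016 over all tested genes. Beside the genes above, those that rose included Cyp2c40 by 1.28, Acot3 by 1.22, Hao2 by 1.06, Fmo2 by 0.80, Nipal1 by 0.73 and Cyp2c39 by 0.69. Acot3, a peroxisomal acyl-CoA thioesterase, ran from 8.4 over 32.4 to 96.8 CPM in CR-spread and from 6.58 over 67 to 299 with a fast (adjusted p = 0.00283, edgeR). Cyp2a4 and Cyp2b10 were among the 8 that did not pass, at 0.06 and 0.17. The summed level of the list had a median of 635 CPM in CR-spread (206 to 1860) and medians of 780 to 1030 in the fasted groups, so the ranges overlapped.

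Ntrk2, the TrkB receptor for brain-derived neurotrophic factor and a member of the female-biased list, moved the other way. It ran from 11.4 over 22.6 to 47.2 CPM in CR-spread and from 0.709 over 9.64 to 47.4 in the fasted livers, and 57 of the 96 fell below the lowest CR-spread liver. The difference was -1.32 (SE 0.19, adjusted p = 1.1e-07, edgeR). The low livers were mostly those of mice fed by day, with 23 of 24 below the CR-spread range in CR-day-12h and 19 in CR-day-2h, against 9 in CR-night-2h and 6 in CR-night-12h. Against CR-spread, Ntrk2 fell by 1.64 in CR-day-2h and by 2.51 in CR-day-12h (adjusted p = 2.06e-06 and 2.02e-13, edgeR). In the night-fed groups the values were -0.78 and -0.33, with adjusted p of 0.0646 and 0.525.

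Of the male-biased list, 3 of 23 tested genes fell, none rose and 20 did not pass, and the median was -0.47. Mup20, which encodes the urinary pheromone darcin and was the most abundant of those that fell, ran from 1020 over 3010 to 5680 CPM in CR-spread and from 55.9 over 1020 to 5870 in the fasted livers. In 48 fasted livers Mup20 was below the lowest CR-spread value, and the difference was -1.20 (SE 0.27, adjusted p = 0.0027, edgeR). The AL median lay between, at 1800 CPM. Mup11 fell by 1.68 (adjusted p = 0.0224, edgeR), but its mean in CR-spread rested on the liver A of hour 20, and the log2 ratio of the means went from -1.46 to -0.85 without that library. Mup14, outside the list, fell by 1.40 and changed from -1.31 to -0.92 in the same way. C6, the sixth component of complement, fell by 0.79 (adjusted p = 0.0291, edgeR) from a median of 190 to 93.7 CPM. Without CR-day-2h or without CR-day-12h in the mean, C6 lost the call (adjusted p = 0.0668 and 0.0811, edgeR). Mup11 lost it in the same way (adjusted p = 0.082 and 0.0769, edgeR). In the B mice alone C6, Mup20 and Mup14 were at -0.43, -0.87 and -0.31 (adjusted p = 0.685, 0.424 and 0.905, edgeR). Mup20 also lost the call with hours 0 to 20 alone and with hours 24 to 44 alone (adjusted p = 0.0767 and 0.25, edgeR). Mup genes are close relatives, so the division of reads among them is uncertain. Elovl3, a fatty acid elongase, had -0.90 (adjusted p = 0.253) and Hsd3b5, a steroid dehydrogenase, -0.81 (adjusted p = 0.396), both without a call in edgeR.

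Further genes named from the lower end of the ranking were lower with a fast. The naming rule took the same number of genes from each end, so the named genes do not show the balance of calls. Over all calls, 60 genes were higher with a fast and 34 lower. Scd2, a stearoyl-CoA desaturase, ran from 7.53 over 18.2 to 124 CPM in CR-spread and from 2.29 over 8.33 to 84.6 with a fast, a difference of -1.12 (SE 0.19, adjusted p = 1.7e-05, edgeR), and 38 fasted livers were below the CR-spread range. Slc10a2, the sodium-dependent bile acid transporter best known from ileum, went from a median of 34.7 (13.5 to 74.6) to one of 13.9 (1.62 to 78.5), a difference of -1.08 (SE 0.19, adjusted p = 2.51e-05, edgeR), with 47 livers below. Fam19a2, which encodes a secreted chemokine-like protein, differed by -1.06 (adjusted p = 0.000371, edgeR) between medians of 2.08 and 0.963 CPM.

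Dlec1 differed by -1.13 (SE 0.20, adjusted p = 2.01e-05, edgeR), with 92 of 96 fasted livers below the CR-spread median of 3.8 CPM. Tinag, a basement membrane antigen of kidney tubules, was at 0 CPM in the median fasted liver and at 0.973 in CR-spread, and its fall of 1.55 came mainly from CR-night-12h, since the mean of the other 3 groups was 0.80 lower with an adjusted p of 0.317. Among the higher genes outside the female-biased list, Rims4, a member of a family that acts in vesicle release, rose by 1.85 (adjusted p = 0.00283, edgeR). Rims4 levels were low, with medians of 0.142 and 0.408 CPM. Mt1, the metal-binding metallothionein, rose by 1.78 (SE 0.41, adjusted p = 0.00348, edgeR) from a median of 4.5 CPM (2.37 to 14.7) to one of 7.86 (1.47 to 626). The highest Mt1 value was the liver B of hour 44 in CR-day-12h, and without it the log2 ratio of the means went from 1.97 to 1.45.

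**Figure D2:**
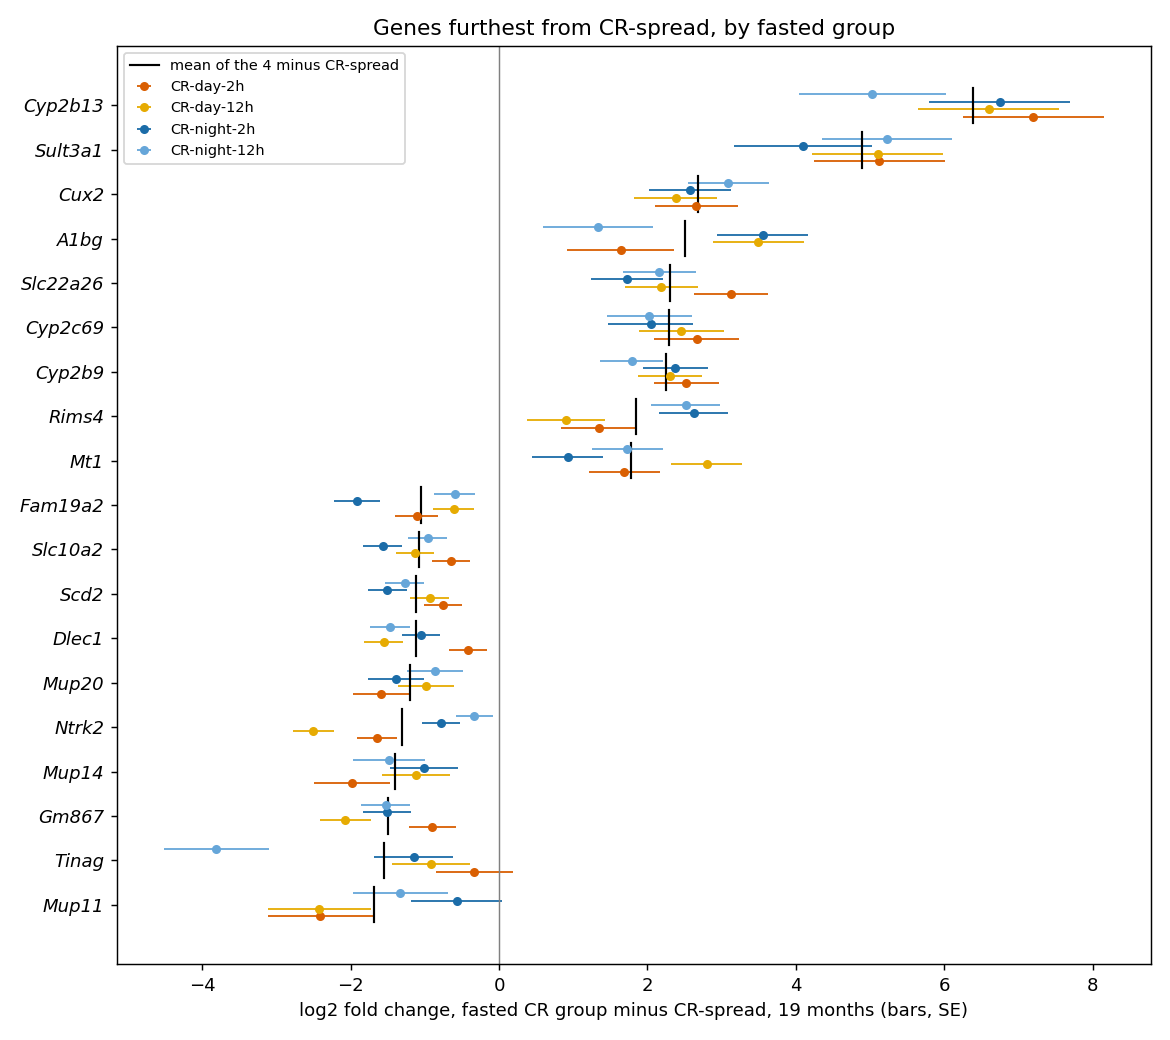
Log2 fold change of each fasted group against CR-spread at 19 months, with its SE, for genes named from both ends of the ranking, and the mean of the 4 groups as a black line. All 4 comparisons use the same 24 CR-spread libraries. Cyp2b13 lies between 5.03 and 7.20 in the 4 groups, whereas Ntrk2 is at -2.51 in CR-day-12h and -0.33 in CR-night-12h.

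Each fasted group was also compared with CR-spread on its own. These comparisons share the 24 CR-spread libraries, so an unusual control value enters all of them. CR-day-2h had 145 genes called (1.19% of those tested), 115 higher (0.94%) and 30 lower (0.245%). CR-day-12h had 74 (0.605%), 50 higher (0.409%) and 24 lower (0.196%). CR-night-2h had 122 (0.998%), 81 higher (0.662%) and 41 lower (0.335%). CR-night-12h had 109 (0.891%), 42 higher (0.343%) and 67 lower (0.548%). Without the libraries that stood apart these counts were 153, 79, 354 and 157. In CR-night-2h, which lost 2 of its own livers, the split became 92 higher and 262 lower, and CR-night-12h, which lost none, also moved. All 7 were left out of that fit together, and the part of each was not tested. Cyp2b13 was 7.20, 6.60, 6.75 and 5.03 above CR-spread in CR-day-2h, CR-day-12h, CR-night-2h and CR-night-12h. Of the female-biased list, 14, 9, 10 and 10 of 23 genes rose in that order. Of the male-biased list, 3, 6, 1 and 1 of 23 fell, with list medians of -0.68, -0.98, -0.12 and -0.12. The summed male-biased level had medians of 3850, 5010, 7040 and 9310 CPM against 9740 in CR-spread. Whether the fasted groups differed from each other was not tested here.

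At 6 months the sex-biased lists lay on the other side of 0. At that age 103 genes were called between the fasted mean and CR-spread (0.842%), 74 higher (0.605%) and 29 lower (0.237%). Of the female-biased list none rose and 8 of 23 fell, with a median of -0.53, and of the male-biased list 4 of 23 rose with a median of 0.56. The interaction of age with the fast, which tests the change in the difference itself, called 101 genes (0.826%), 42 with a larger (0.343%) and 59 with a smaller value at 19 months (0.482%). This count was 3 without the A mice, 405 without the B mice, 35 with hours 0 to 20 and 0 with hours 24 to 44, where 818 genes had an unadjusted p under 0.05 in edgeR. The 101 included 15 genes of the female-biased list, all with the larger value at 19 months, and 9 of the male-biased list, all with the smaller one. Cyp2b13 went from -0.34 at 6 months to 6.39 at 19 months (interaction 6.74, SE 1.01, adjusted p = 1.51e-06, edgeR). Elovl3 went from 2.34 to -0.90 (interaction -3.24, SE 0.71, adjusted p = 0.0029, edgeR).

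**Figure D3:**
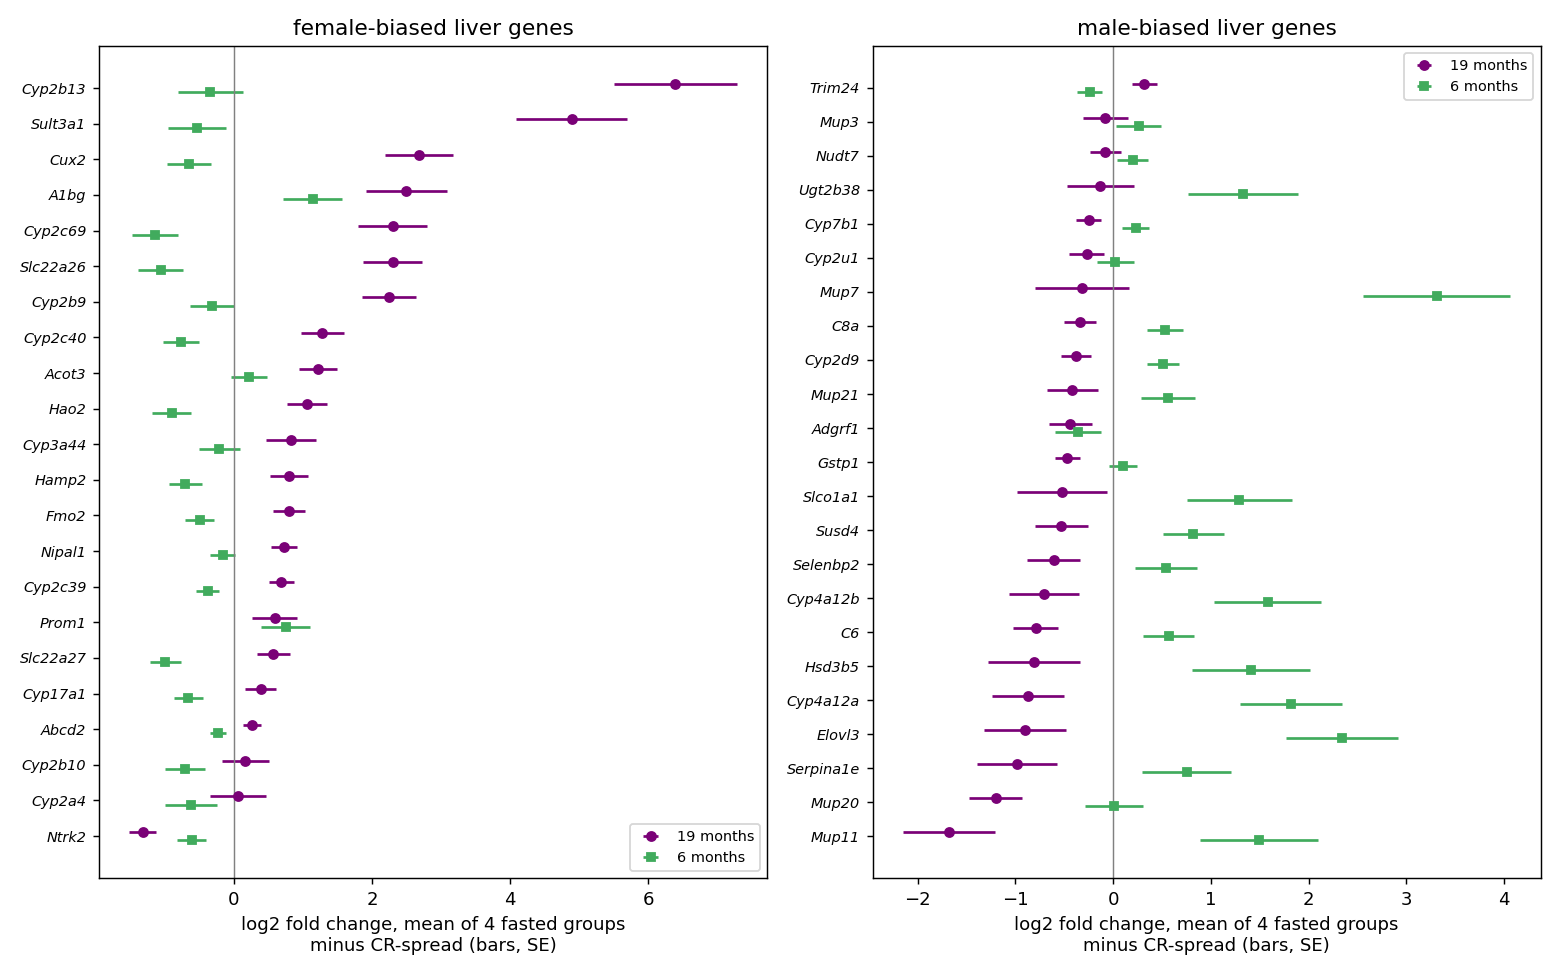
Log2 fold change of the mean of the 4 fasted groups against CR-spread, with its SE, for tested genes of the female-biased and the male-biased list, at 19 months (circles) and 6 months (squares). Over the 23 tested genes of each list, female-biased genes have a median of 0.83 at 19 and -0.53 at 6 months, and male-biased genes one of -0.47 at 19 and 0.56 at 6 months.

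Both arms changed with age, and CR-spread changed further. CR-spread livers of 6 months had medians of 19.5 CPM for Cyp2b13, 44.6 for Cux2 and 518 for Cyp2b9, where those of 19 months had 0.0489, 0.839 and 29.4. From 6 to 19 months, Cyp2b13, Cux2 and Mup20 changed by -6.01, -4.91 and 3.00 in CR-spread. Over the fasted groups the same changes were 0.73, -1.59 and 1.79. AL livers of 6 months had a median of 0 and at most 0.217 CPM of Cyp2b13, below the medians of both restricted arms at that age, 19.5 in CR-spread and 6.72 in the fasted livers. In all, 1040 genes were called with age in CR-spread (8.51%) and 725 in the fasted mean (5.93%). Run dates are not in the tables, so the 6-month and 19-month libraries may differ by batch as well as by age, which cannot be told apart here. The comparison within 19 months does not cross ages, but run dates are missing for its libraries too, so a batch difference between its groups was not tested.

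On the list of 19 fasting signals and ketogenesis genes, those that passed both thresholds and rose belonged to 1 family. The 4 Cyp4a genes on the list of fasting signals, which encode fatty acid omega-hydroxylases and are classical PPARA targets, rose with a fast, and of the 19 list members 4 rose, 1 fell and 14 did not pass. Cyp4a10 ran from 74.6 over 279 to 409 CPM in CR-spread and from 36.3 over 440 to 1530 with a fast (difference 0.83, SE 0.16, adjusted p = 0.000162, edgeR). Cyp4a32 rose by 0.99 (adjusted p = 9.2e-06, edgeR), Cyp4a31 by 0.76 and Cyp4a14 by 0.74. The reads of these relatives may be shared. By group the Cyp4a10 difference was 1.34, 1.05, 0.81 and 0.10 in CR-day-2h, CR-day-12h, CR-night-2h and CR-night-12h, the last with an adjusted p of 0.847, whereas Cyp4a32 was 0.99, 0.94, 1.16 and 0.87 and passed in each. Cyp4a31 was at 1.54, 1.22, 0.78 and -0.50 and Cyp4a14 at 1.28, 1.28, 0.76 and -0.38, so in CR-night-12h neither was above CR-spread (adjusted p of 0.287 and 0.422, edgeR). Without CR-day-2h in the mean, Cyp4a31 and Cyp4a14 had adjusted p of 0.183 and 0.113, and without CR-day-12h 0.0747 and 0.101. At 6 months all 4 genes were also higher with a fast, by 0.87 to 1.40. Fgf21, a hormone that the liver secretes in fasting, was the member that fell, by 0.79 (SE 0.24, adjusted p = 0.0369, edgeR). By group, no list member was called lower in CR-day-2h, CR-day-12h or CR-night-2h, and 1 was in CR-night-12h. At 6 months none was called lower in the fasted mean. Pdk4, which restrains glucose oxidation, was at -0.07 without a call.

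Of 29 genes of mitochondrial and peroxisomal fatty acid oxidation, only Acot3 passed the fold threshold, but 10 were higher at the adjusted p alone and none lower, and the median was 0.145. Hadhb, a subunit of the mitochondrial trifunctional protein, ran from 68.9 over 87 to 106 CPM in CR-spread and from 48.9 over 107 to 149 with a fast (difference 0.29, SE 0.05, adjusted p = 6.89e-06, edgeR). Acadl, a long-chain acyl-CoA dehydrogenase, was higher by 0.26 and Decr1, a dienoyl-CoA reductase, by 0.21. Of the 21 lipid droplet genes, Vldlr, the receptor for very-low-density lipoprotein, rose by 0.76 and Gpat3, an enzyme of triglyceride synthesis, by 0.75 (adjusted p = 0.00348 and 0.0389, edgeR). Gpat3 lost the call with only the 120 libraries fitted (adjusted p = 0.0696), with no filter (0.0546) and without CR-day-2h, CR-day-12h or CR-night-2h in the mean (0.149, 0.135 and 0.0917). Cidea, a droplet protein, was called lower at levels too low to read, with medians of 0 CPM in both arms against 15.4 in AL livers.

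No gene passed both thresholds in the mean of the fasted groups among 11 of gluconeogenesis, 14 of glycolysis, 12 of glycogen metabolism, 35 of amino acid catabolism, 8 of the urea cycle, 20 of de novo lipogenesis, 26 of cholesterol synthesis, 20 of bile acid synthesis and transport, 22 of the insulin and IGFBP list and 20 of the clock. At the adjusted p alone, 1 gene each was lower in the lists of lipogenesis, cholesterol and bile acids and none passed in the other 7 lists. Also at the adjusted p alone, where 1.63% of all tested genes were higher and 1.42% lower, 9 of 91 cytosolic ribosomal protein genes were higher and none lower, with a median of 0.105. Of 91 nuclear genes of the respiratory chain 3 were higher, a share near that over all genes, with a median of 0.102.

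Of 21 acute phase genes, whose products liver secretes in inflammation, 5 rose, none fell and 16 did not pass, with a median of 0.276. Orm2, an orosomucoid, ran from 4.09 over 8.56 to 32.3 CPM in CR-spread and from 3.63 over 15.5 to 431 with a fast (difference 1.22, SE 0.24, adjusted p = 0.000272, edgeR), and its largest difference by group was 2.22 in CR-day-2h. Orm3 rose by 1.04, Saa2 by 1.22, Lcn2 by 1.06 and Mt1 as above. Saa2, a serum amyloid protein, was at 0.92, 4.49, -0.38 and -0.16 in CR-day-2h, CR-day-12h, CR-night-2h and CR-night-12h, and passed in CR-day-12h alone. Lcn2, an iron-siderophore binding lipocalin, was at 1.42 and 2.47 in the day-fed groups, where it passed, and at 0.20 and 0.14 in the night-fed ones, where it did not. Whether the groups differed from each other was not tested. With only the 120 libraries of the comparison fitted, 3 members were called. The more abundant members were not called, with Hp at 0.12, Fga at 0.33 and Serpina3n at 0.11. The summed acute phase level reached 89200 CPM in CR-day-12h against a CR-spread range of 12300 to 27600, while the group medians were 18700 to 22500 and 19000.

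Few markers of other cell types passed. In the mean of the fasted groups no gene passed both thresholds among 14 tested markers of Kupffer cells, 8 of T and NK cells, 3 of neutrophils, 18 of stellate cells and matrix, 12 of sinusoidal endothelium, 4 of cholangiocytes, 10 of hepatocytes, 27 of interferon response and 7 of MHC class II. In single groups, Mmp2, Col12a1 and Lum of the stellate and matrix list were at -0.95, -0.63 and -0.64 in CR-night-12h (adjusted p = 0.0207, 0.0484 and 0.0279, edgeR). Lyve1, an endothelial receptor for hyaluronan, rose by 0.68 in CR-night-2h (adjusted p = 0.0438, edgeR), and the interferon response genes Rsad2 and Ifit3 rose by 1.43 and 1.32 in CR-day-2h (adjusted p = 0.0305 and 0.0135, edgeR). Summed Kupffer cell markers had medians of 174 to 250 CPM in the fasted groups and 208 in CR-spread, with single fasted livers up to 1390. Jchain, which joins the chains of secreted immunoglobulins, rose by 0.70 (adjusted p = 0.0265, edgeR), and the summed B and plasma cell markers ran from 1.93 to 40.4 CPM in the fasted groups and from 2.9 to 9.75 in CR-spread. Mmp12, a macrophage protease, fell by 0.96 (adjusted p = 0.0474, edgeR), a call that was lost in DESeq2 (0.0991), with no filter (0.0661) and without CR-day-2h, CR-night-2h or CR-night-12h in the mean (0.0819, 0.0817 and 0.146), and Chaf1a, a histone chaperone of dividing cells, by 0.71 (adjusted p = 0.0149, edgeR). Jchain, Mmp12 and Chaf1a were each the only call on these lists in the fasted mean. The lists held 5 tested markers of B and plasma cells, 10 of lipid-associated and recruited macrophages and 14 of proliferation. Their medians were 0.225, 0.002 and -0.326, and 5, 6 and 1 genes were above 0. With only the 120 libraries fitted, Jchain and Chaf1a had adjusted p of 0.144 and 0.0543. The part of these cells in the results above was not tested. Of the mitochondrially encoded genes, mt-Co2 and mt-Co3 were called at -2.59 and 2.94, but both medians were under 0.2 CPM with single libraries up to 3900 and 710, and without its top library the log2 ratio of means for mt-Co2 changed sign.

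More genes were called rhythmic over the day in each fasted group than in CR-spread. A 24 h cosine was called at an adjusted p under 0.05 with a peak at least 1.5 times the trough in 1934 genes in CR-day-2h (15.8%), 2044 in CR-day-12h (16.7%), 2719 in CR-night-2h (22.2%), 2706 in CR-night-12h (22.1%) and 881 in CR-spread (7.2%), all by edgeR with 24 livers each. In all 4 fasted groups 374 genes were called, of which 192 were not called in CR-spread, and 97 were called in CR-spread alone. Because a call in one group and not in another does not show a difference, the amplitudes were compared directly with limma on log2 CPM. By that test 39 genes (0.319%) had a larger amplitude in the mean of the fasted groups than in CR-spread, by 0.14 to 1.86 on the log2 scale, and 0 had a smaller one (0%), where 694 and 78 passed at an unadjusted p under 0.05. Without the libraries that stood apart 43 were called, but with the A or the B mice alone the counts were 1 and 0. Of the 39, between 34 and 38 were rhythmic in each fasted group and 1 in CR-spread. These counts follow largely from the choice of the 39 by amplitude in the same libraries, so they are not separate support.

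**Figure D4:**
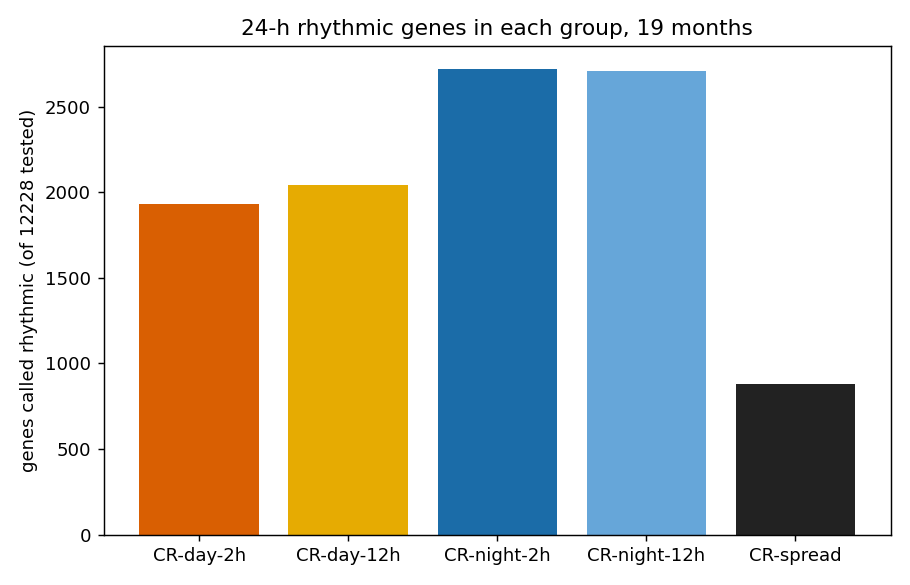
Number of genes called rhythmic over 24 h in each group at 19 months, of those tested, by a cosine fit in edgeR with an adjusted p under 0.05 and a peak-to-trough fold of at least 1.5, with 24 livers a group. The bars stand at 1934, 2044, 2719 and 2706 in the fasted groups and at 881 in CR-spread.

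The 6 genes with the largest amplitude differences were Pnpla3, Tubb2a, Angptl8, Ppp1r3b, Cyp7a1 and Fbxo21. Pnpla3, a lipid droplet protein under control of insulin and SREBP1, had a fitted amplitude of 2.31 with a fast and 0.44 in CR-spread (difference 1.86, SE 0.39, adjusted p = 0.00461, limma). Ppp1r3b, which targets protein phosphatase 1 to glycogen, had amplitudes of 1.40 and 0.35 (difference 1.05, SE 0.17, adjusted p = 0.000227, limma). Angptl8, a feeding-induced inhibitor of lipoprotein lipase, had 1.34 and 0.26, and Cyp7a1, the rate-limiting enzyme of bile acid synthesis, 1.17 and 0.17. Tubb2a, a tubulin, and Fbxo21, an F-box protein, had differences of 1.12 and 0.78. Chosen after their values were seen, Ppara at 0.60 and Cpt1a, the gate of mitochondrial fatty acid import, at 0.51 were also among the 39.

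The amplitude of Ppp1r3b differed while its mean level did not pass the test. Ppp1r3b ran from 124 over 331 to 572 CPM in CR-spread and from 36.3 over 360 to 781 with a fast, and its mean differed by -0.01 (adjusted p = 0.985, edgeR). In CR-night-2h it was at 64.7 ± 13.7 CPM at hour 8 and at 602 ± 130 at hour 16 (SD, n = 4). In CR-day-2h the order was the reverse, with 578 ± 119 at hour 8 and 153 ± 30.1 at hour 16. In CR-spread the values at these hours were 404 ± 196 and 410 ± 101. Fitted peaks of Ppp1r3b fell at 6.7, 10.7, 18.6 and 21.0 h in CR-day-2h, CR-day-12h, CR-night-2h and CR-night-12h, so day-fed and night-fed livers peaked at about opposite times. Pnpla3 went from 3.87 ± 0.90 CPM at hour 12 to 260 ± 98.3 at hour 20 in CR-night-2h, while its 6 hourly means in CR-spread lay between 26 and 67.1 CPM.

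**Figure D5:**
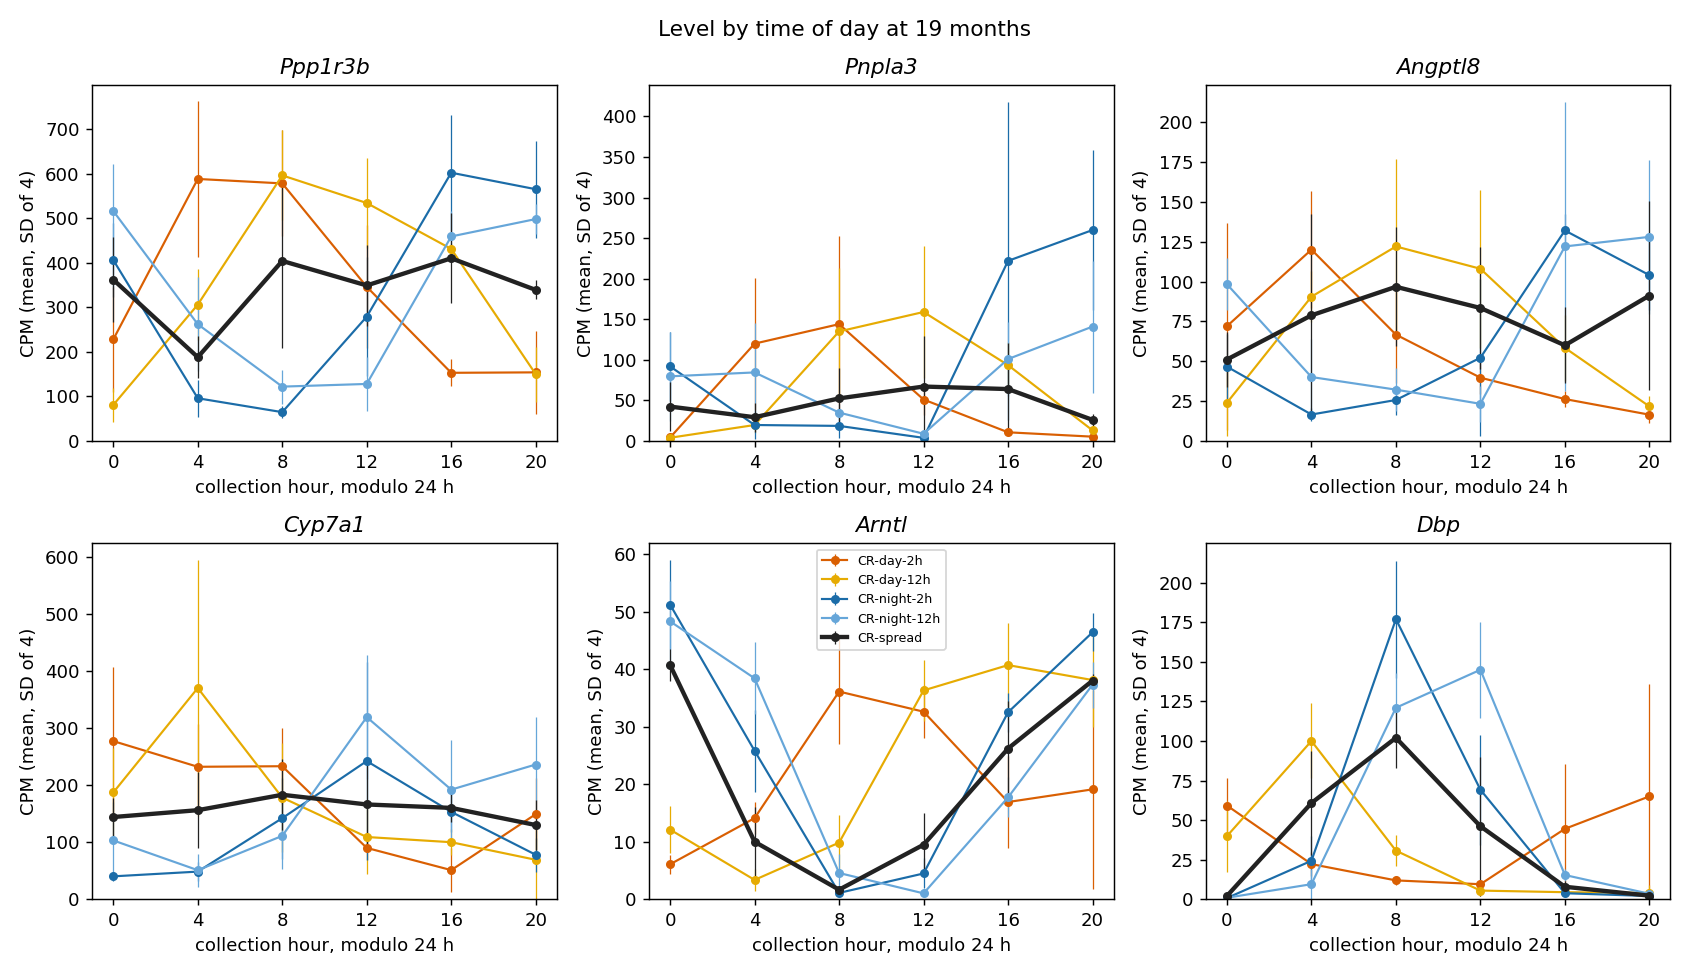
Mean level in CPM at each of 6 collection hours (modulo 24 h), with the SD of 4 livers, for Ppp1r3b, Pnpla3, Angptl8, Cyp7a1, Arntl and Dbp in the 4 fasted groups and CR-spread (thick black line) at 19 months. The first 4 genes swing in the fasted groups and have smaller fitted peak-to-trough folds in CR-spread, at 1.48, 2.10, 1.32 and 1.32, whereas Arntl and Dbp also swing in CR-spread, with folds of 13.8 and 67.4.

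The core clock kept its rhythm with food spread over the day. Of 20 clock and output genes, 18 were rhythmic in CR-spread, against 16, 18, 19 and 19 in CR-day-2h, CR-day-12h, CR-night-2h and CR-night-12h, and none differed in mean level or in amplitude at an adjusted p under 0.05. Arntl, the partner of CLOCK, peaked at 20.5 h in CR-spread, near the 21.6 and 23.1 h of the night-fed groups, and at 11.3 and 16.2 h in CR-day-2h and CR-day-12h. The Arntl peak-to-trough folds were 3.94, 11, 21.8 and 22.8 in the fasted groups and 13.8 in CR-spread. Dbp, an output factor of the clock, had folds of 7.79, 31.7, 218 and 142 against 67.4, with peaks at 21.1, 4.0, 8.9 and 10.5 h against 8.2 h. Phases were not tested between groups.

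Metabolic lists differed in how many members were rhythmic, given here in the order CR-day-2h, CR-day-12h, CR-night-2h, CR-night-12h and CR-spread. De novo lipogenesis had 13, 18, 17, 11 and 7 of 20 genes, cholesterol synthesis 18, 17, 14, 8 and 6 of 26, and fatty acid oxidation 4, 5, 9, 10 and 1 of 29. Nuclear genes of the respiratory chain had 6, 41, 7, 35 and 1 of 91, and cytosolic ribosomal proteins 1, 10, 1, 24 and 0 of 91. These counts depended on the shape fitted. With 6 times of day in place of a cosine, the respiratory chain had 5, 34, 30, 20 and 0 and the ribosomal proteins 3, 10, 6, 18 and 0, and over all genes 2911, 2314, 3982, 2770 and 741 were called, with more in the 2h groups than in the 12h groups. Without the libraries that stood apart the respiratory chain counts were 6, 30, 5, 34 and 2. The 27 interferon response genes had 21 rhythmic members in CR-day-2h and 6 without those libraries. The shares over all tested genes were those given above, and differences between these counts were not tested.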

How the data were processed

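Livers of 288 mice were profiled by RNA-seq, of which 120 libraries entered the comparison and the rest the shared estimate of spread. The authors counted reads per gene, naming FastQC, cutadapt, STAR and featureCounts without versions, and deposited the raw counts unnormalized, while a table of RPKM values was not used here. The build and strand setting were not given in the sources used here. The 24 columns of each table were assigned to samples by their labels, with 0 columns left unmapped, and no libraries were identical. Genes were kept with filterByExpr, 12228 of 21869. Levels were modelled in edgeR 4.0.16 (R 4.3.3, TMM factors, quasi-likelihood F test) fitting all 12 groups, and the contrast was the mean of 4 fasted groups minus CR-spread. A call needed a Benjamini-Hochberg adjusted p under 0.05 over all genes tested and a fold of 1.5. The SE of a log2 difference is its size over the root of F. Rhythms were tested in edgeR with a cosine and a sine of 24 h per group, and amplitudes in limma 3.58.1 on log2 CPM (prior count 2), with errors by the delta method. On counts simulated for these contrasts and 12228 genes, 41 of 50 changes of 1.5-fold and 98 of 100 of 2-fold were recovered. This was at the adjusted p alone, without the fold threshold, with 12 false calls. Of simulated amplitudes, 54 of 100 of 0.5 and 88 of 100 of 1 were recovered with 0 false calls. Apart from the changes put in, counts were drawn independently around a single mean per gene. They held no difference between A and B mice and no subset of very high livers, so recovery in the real data may differ.

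Alternatives were RLE factors, DESeq2 1.42.0, limma on log2 CPM, other filters, subsets of mice, hours and groups, a block for hour and letter and a mean for each hour, for which the dispersion of the group model was used. Leaving out libraries whose correlation with their group mean was under 0.95, and limma, were added after seeing the data. Mice of one group, hour and letter are separate animals, and p-values rest on the spread between them, which includes time of day in the tests of levels. Named are the 10 highest and 10 lowest called genes with at least 1 CPM and 1 direction in the A mice, the B mice, both days and each fasted group, up to 4 genes per list by smallest p, the 5 highest and 5 lowest of the age interaction, the clock genes and the 6 largest amplitude differences. Predicted genes counted in the ranking and are not printed, and some other genes are not reported here. Other members of the lists with a call, further members given as examples of no call, and genes said to be so were chosen after their values were seen. The comparison, its lists and its members were chosen with earlier results of these data known. Coordinates are those of GENCODE M21, given where the versioned identifier was the same, as for 10076 of the 12228 tested genes (82.4%).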

Additional observations from a re-analysis of the deposited data

Results flagged for a closer look

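The difference between fasted and round-the-clock fed mice was not the same at 19 and 6 months, by the interaction of age with the fast in edgeR, for 101 genes. The number was 3 without the A mice and 405 without the B mice, and 35 with hours 0 to 20 and 0 with hours 24 to 44, where 818 passed at an unadjusted p under 0.05 in edgeR. Among the largest interactions in the direction of a higher value at 19 months were 6.74 for Cyp2b13, 5.42 for Sult3a1, 3.44 for Cyp2c69 and 3.35 for Slc22a26, all female-biased in mouse liver. In the other direction they were -3.62 for Mup7, -3.35 for Mup14, -3.24 for Elovl3, -3.17 for Mup11 and -2.75 for Mup1. Mup7, Elovl3 and Mup1 were higher with a fast at 6 months, by 3.31, 2.34 and 2.19, and not called at 19 months, at -0.32, -0.90 and -0.56. Levels of Mup1 were low, with medians of 0.353 CPM in CR-spread and 0.186 in the fasted livers at 19 months.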

How the results depend on the processing

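Counts of genes called fell in most subsets of mice or hours. Without the B mice some rose, among them those at 6 months, to 238 from 103, and in the age interaction, to 405 from 101. Why the A and the B mice differed was not tested. Without the A or without the B mice, the counts of genes called ran from 9 to 74 at 19 months, from 9 to 238 at 6 months and from 3 to 405 in the age interaction. Against CR-spread they ran from 27 to 220 in CR-day-2h, 18 to 110 in CR-day-12h, 26 to 68 in CR-night-2h and 18 to 25 in CR-night-12h. Rhythmic genes ran from 750 to 2218, 901 to 1603, 1392 to 1877, 1458 to 2116 and, in CR-spread, 157 to 599, and amplitude differences from 0 to 1, with 356 at an unadjusted p under 0.05 in limma for the 0. With hours 0 to 20 only, 35, 53 and 35 genes were called at 19 months, at 6 months and in the interaction, and with hours 24 to 44 only 16, 13 and 0, the last with 818 at an unadjusted p under 0.05 in edgeR. At the adjusted p alone the counts were 373, 1229 and 370, and rhythmic genes 2918 in CR-day-2h and 3372 in CR-day-12h. With 6 times of day in place of a cosine, 2911 genes were rhythmic in CR-day-2h. Without the libraries that stood apart, 161 genes were called at 19 months and 354 in CR-night-2h.

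The 35 genes with a call that entered the checks by gene all kept their direction under RLE factors, no filter, DESeq2 and without any 1 fasted group. Saa2, Lcn2, Fgf21, Cyp2c40, Hao2, Fmo2, Nipal1 and Cyp2c39 were not among them. Genes named from the ends of the ranking had to share 1 direction in each fasted group, so for them the last check could not fail. Reversals came at low levels, with Cidea at 0 and -2.16 without the A and the B mice, mt-Co2 at 4.32 and -3.61, mt-Co3 at 6.12 and -1.19, mt-Co2 at 7.86 with hours 0 to 20 and at 0.71 in limma, and Col12a1, which was not called in the fasted mean, at 0.03 with hours 24 to 44. DESeq2 called 90 genes at 19 months, of which 82 were shared with edgeR, but not Mup11, Mup14, Tinag, Mmp12, Cidea and mt-Co2 (adjusted p of 0.0604, 0.135, 0.216, 0.0991, 0.107 and 0.326). With a mean for each hour mt-Co2 was at 1.97, and Cyp2b13 and Sult3a1 were at 4.79 and 3.33 without a call, and the cause was not tested. In the pairing check, deviations of mice of the same hour and letter had a correlation over 0.1 with CR-spread in 7 to 15 of 24 pairs a group (medians 0.0414 to 0.139), so not in every pair, and 2 to 6 livers correlated best with their own number. The deviations were taken from the group mean over all hours, so they hold time of day. This check therefore cannot tell a shared hour from a pairing by number, and nothing is concluded from it. With the replicate block 100 genes were called at 19 months, 87 of them shared, and 33 of the 35 genes kept the call, while mt-Co2 went to 0.23.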
